A study of Mus musculus with 16 samples.

Results

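The genes described here encode the nuclear subunits of respiratory complexes II to V, measured in mouse liver. They were chosen by name: a probe set of the array had to name 1 gene only, and that gene had to be Sdha, Sdhb, Sdhc, Sdhd or Cyc1, to begin with Uqcr or Atp5, or to carry the symbol of a subunit of families Cox4 to Cox8. The rule found 47 genes of the 19938 genes with a probe set of their own, 4 of complex II, 9 of complex III, 17 of complex IV and 17 of complex V. The rule uses names and no measured value, though it was written with earlier results of these data known. Where a gene had several probe sets, the one with the highest mean was used, and 45 of the 47 genes passed a filter on dim signals and were tested among 13152 genes. The 2 that did not pass were Cox7b2 and Cox8b. Cox7c, another complex IV subunit, has 3 probe sets that each name several genes and is not analysed here, nor are the subunits encoded by mitochondrial DNA.

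Complex II (succinate dehydrogenase) passes electrons from succinate to ubiquinone, complex III carries them on to cytochrome c, and complex IV hands them to oxygen. The protons pumped by complexes III and IV, together with those of complex I, drive complex V, the ATP synthase, which consists of a catalytic F1 head, a rotating ring of c subunits, a peripheral stalk and a set of small membrane subunits. Hepatocytes hold many mitochondria and use the chain for fatty acid oxidation, urea synthesis and gluconeogenesis. Some complex IV subunits exist as a general form and a form known from heart and skeletal muscle, testis or lung.

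Liver total RNA of strain 129 mice was hybridised to 16 Affymetrix arrays. Wild-type mice, Rassf1a-/- mice, Sav1+/- mice and mice with both alterations (Rassf1a-/- Sav1+/-, called the double genotype below) had 4 arrays apiece. Rassf1a is the long isoform of the tumour suppressor gene Rassf1, removed from both copies in 2 of the genotypes. Sav1 encodes the scaffold of the Hippo pathway kinases, and the Sav1+/- genotypes keep 1 intact copy. The sources used here do not state whether the alterations are germline or limited to a tissue, or the sex and age of the mice. Nor do they state whether the 4 arrays of a genotype stand for 4 animals. The p-values then measure only the spread between these samples, which may be technical.

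Liver identity and the genotypes were checked first. The 8 hepatocyte markers found, albumin among them, had a mean log2 signal between 13.24 and 13.62 on all 16 arrays. Sav1 had a log2 signal of 8.37 to 8.61 in wild type, 8.46 to 8.78 in Rassf1a-/-, 7.38 to 8.17 in Sav1+/- and 7.30 to 7.96 in the double genotype. Against wild type, Sav1 differed by -0.90 on the log2 scale in Sav1+/- (limma adjusted p = 0.110). It fell by 0.88 in the double genotype, with an adjusted p of 0.0230. The Rassf1 probe set names the gene and not the isoform, and so checks nothing about the Rassf1a alleles. Y-linked genes were high on 5 arrays, which were replicate 2 of Rassf1a-/-, replicates 3 and 4 of Sav1+/- and replicates 1 and 2 of the double genotype. Their mean log2 signal was 8.87 to 9.18 there and 2.09 to 4.17 on the other 11 arrays. Wild type had 0 of the high arrays. The split may mark the sex of the mice, which is then unevenly spread over the genotypes. The arrays of Sav1+/- resembled each other least, with mean correlations of 0.934 to 0.947 within the genotype against 0.967 to 0.973 in wild type. Replicate 2 of Sav1+/- and replicate 2 of the double genotype had the lowest mean over the tested subunit genes, 0.28 and 0.27 below the wild-type mean on the log2 scale.

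Promoter sequences of 5 of these genes are shown, chosen after the values were seen, because they held some of the largest differences below or form an isoform pair. They are the 250 bases before the annotated start, from RefSeq (GRCm38.p6), on the strand of the gene. Uqcr11 and Atp5l were lowest in the double genotype, Atp5g1 was lowest in Sav1+/-, and Cox7a1 and Cox7a2 are the muscle form and the general form of one complex IV subunit. Capitals mark any of 5 motifs searched on both strands: the ETS motif CCGGAAG, the NRF1 motif GCGCATGCG, the YY1 motif AAGATGGCG, the Sp1 GC box GGGCGG and the CCAAT box. ETS factors of the GABP type, NRF1 and YY1 are known regulators of respiratory genes.
Uqcr11 (chr10:80406822-80407071, minus strand): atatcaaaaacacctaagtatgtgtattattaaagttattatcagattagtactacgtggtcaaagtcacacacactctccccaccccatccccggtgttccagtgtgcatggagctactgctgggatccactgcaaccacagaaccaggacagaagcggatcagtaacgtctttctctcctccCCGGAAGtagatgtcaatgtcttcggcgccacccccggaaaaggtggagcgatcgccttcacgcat
Atp5l (chr9:44920743-44920992, minus strand): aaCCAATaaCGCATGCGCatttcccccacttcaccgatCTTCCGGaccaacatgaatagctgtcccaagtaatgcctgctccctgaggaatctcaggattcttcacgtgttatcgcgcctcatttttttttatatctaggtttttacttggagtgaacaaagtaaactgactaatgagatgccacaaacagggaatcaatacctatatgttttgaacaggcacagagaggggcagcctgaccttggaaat
Atp5g1 (chr11:96075632-96075881, minus strand): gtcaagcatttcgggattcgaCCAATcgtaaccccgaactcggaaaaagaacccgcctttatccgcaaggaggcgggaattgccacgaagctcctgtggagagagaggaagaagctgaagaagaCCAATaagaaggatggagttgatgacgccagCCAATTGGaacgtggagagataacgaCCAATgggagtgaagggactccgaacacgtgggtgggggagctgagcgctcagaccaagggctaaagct
Cox7a1 (chr7:30183921-30184170, plus strand): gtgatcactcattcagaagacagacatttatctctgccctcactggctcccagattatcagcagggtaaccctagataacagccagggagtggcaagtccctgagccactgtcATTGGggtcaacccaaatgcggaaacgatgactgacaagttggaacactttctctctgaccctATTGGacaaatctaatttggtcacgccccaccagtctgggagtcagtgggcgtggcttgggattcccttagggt
Cox7a2 (chr9:79759854-79760103, minus strand): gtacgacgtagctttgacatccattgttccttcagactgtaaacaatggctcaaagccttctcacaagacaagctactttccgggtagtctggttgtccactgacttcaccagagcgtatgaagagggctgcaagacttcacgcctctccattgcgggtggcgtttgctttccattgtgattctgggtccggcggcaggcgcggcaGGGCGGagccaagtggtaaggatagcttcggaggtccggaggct
Uqcr11 holds an ETS motif, Atp5l a CCAAT box, an NRF1 motif on the reverse strand and an ETS motif on the reverse strand, Atp5g1 several CCAAT boxes of which a forward and a reverse one overlap, Cox7a1 reverse CCAAT boxes, and Cox7a2 a GC box. The table held windows of 300 bases, 250 before and 50 after the start, for 35 of the 47 genes. The ETS motif occurred in the windows of 13 of these 35 genes (37.1%), among them Sdhb, Sdhd, Uqcrh, Cox6a1 and Atp5h, and in 9.93% of all 27025 genes with such a window, which include genes that code for no protein. The NRF1 motif occurred in 6 of the 35 genes (17.1%; Atp5g2, Atp5k, Atp5l, Cox6a1, Uqcr11 and Uqcrc1) and in 1.95% of all genes. The YY1 motif occurred in Atp5j and Atp5j2 (5.71% against 1.64%), the GC box in 14 genes (40% against 38.2%) and the CCAAT box in 20 (57.1% against 41.1%). The windows of the 35 genes had a median GC content of 56.3%, against 52.8% over all genes. These matches describe the letters of the windows only.

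No subunit gene passed the test in any comparison. In each of the 2 genotypes with 1 Sav1 copy most had a lower mean than wild type, though not always the same genes. With limma and Benjamini-Hochberg adjustment over all 13152 genes, 0 of 45 subunit genes were called at an adjusted p under 0.05 in Rassf1a-/- (0.7% of all genes were called), in Sav1+/- (0%), in the double genotype (0.821%), for the Rassf1a effect averaged over both Sav1 states (2.23%), for the Sav1 effect averaged over both Rassf1a states (0.0228%) or for the interaction of both alterations (0%). At an unadjusted p under 0.05 the counts were uneven. In Rassf1a-/- against wild type 1 subunit gene was higher (6.33% of all genes were) and 0 lower (4.1%). In Sav1+/- 0 were higher (1.69%) and 7 lower (7.47%), which is 15.6% of the 45. In the double genotype 0 were higher (7.19%) and 12, or 26.7%, lower (6.44%). For the averaged Sav1 effect 1 was higher (4.43%) and 20, or 44.4%, lower (10.4%). The higher one was Cox8c, which reached the filter only on arrays of the Sav1 genotypes. For the averaged Rassf1a effect 4 were higher (11.7%) and 2 lower (3.6%), and for the interaction 0 were positive (5.76%) and 7 negative (3.63%). The double and the single genotypes were compared with the same wild-type arrays, and both Sav1 genotypes enter the averaged Sav1 effect, so these counts are not independent of each other.

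**Figure D1:**
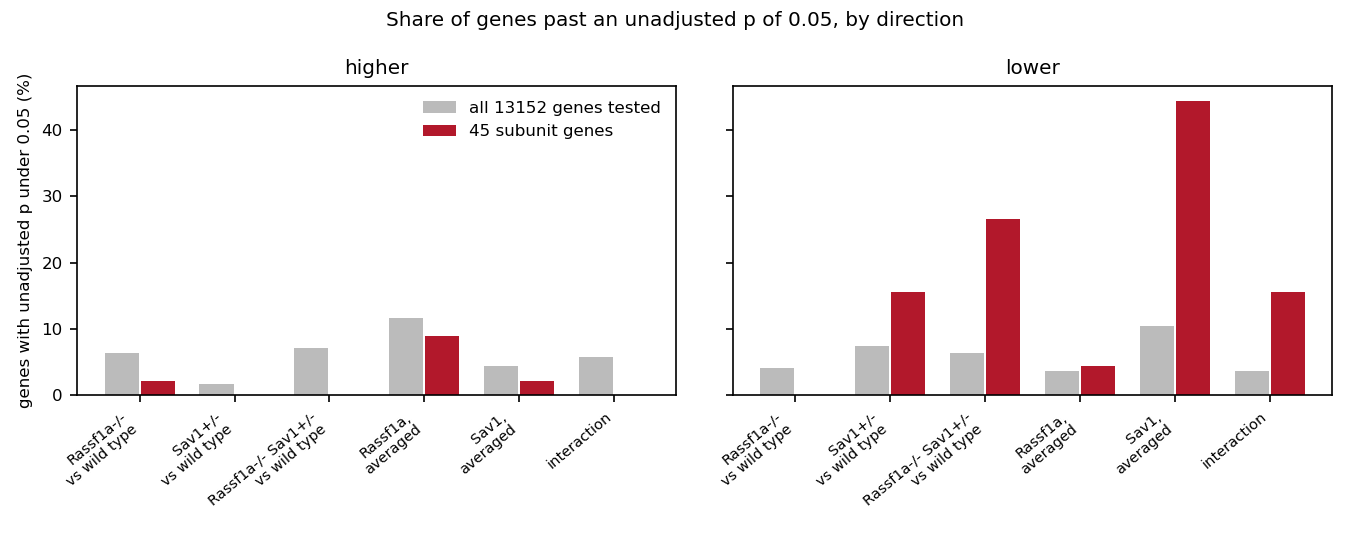
Share of genes with an unadjusted p under 0.05 (percent, vertical axis) in each of the 6 comparisons (horizontal axis), higher in the left panel and lower in the right, for all 13152 genes tested (grey) and the 45 subunit genes (red). The tallest red bar is the averaged Sav1 effect, with 44.4% of the subunit genes lower against 10.4% of all genes.

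Over the 45 subunit genes the median log2 difference from wild type was +0.08 in Rassf1a-/-, -0.13 in Sav1+/- and -0.14 in the double genotype, against -0.01, -0.02 and +0.05 over all genes. It was -0.18 for the averaged Sav1 effect (all genes, +0.02), with 41 of 45 genes lower (46.0% of all genes). For the interaction it was -0.13 (all genes, +0.09). In Rassf1a-/- 35 of 45 genes were higher than in wild type (48.3% of all genes were). In Sav1+/- 31 were lower (54.1%) and in the double genotype 36 were lower (41.3%). For comparison, the mean over the tested subunits varied between arrays of a genotype with a pooled SD of 0.0862. That mean was 11.43 to 11.86 on the arrays, far above the median of all probe sets, 7.20 to 7.51. The background changed with the brightness of the genes kept. For the averaged Sav1 effect the median over all genes was +0.05 without the filter and -0.01 with a filter at the 60th percentile. The shares lower at an unadjusted p under 0.05 were 7.13% and 13.6%. The subunit medians were -0.17 and -0.18.

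Weighting the arrays by their agreement with their genotype (limma arrayWeights) changed some calls. Sav1+/- replicates 1 and 2 then had the lowest weights, 0.279 and 0.276. In the double genotype 4 of 45 subunits were called, all lower, when 9.36% of all genes were called in either direction. The share of the subunits was thus no higher than that of all genes. The log2 differences were -0.43 for Sdhb, -0.47 for Uqcr11, -0.91 for Cox7a1 and -0.59 for Atp5l (limma adjusted p = 0.0221 to 0.0294). For the averaged Sav1 effect 10 of 45 subunits were called, all lower, when 11.5% of all genes were called in either direction. They were Sdhb, Sdhc, Cyc1, Uqcr11, Uqcrfs1, Cox4i1, Cox6b1, Cox7a1, Atp5g1 and Atp5h (limma adjusted p = 0.0128 to 0.0426).

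**Figure D2:**
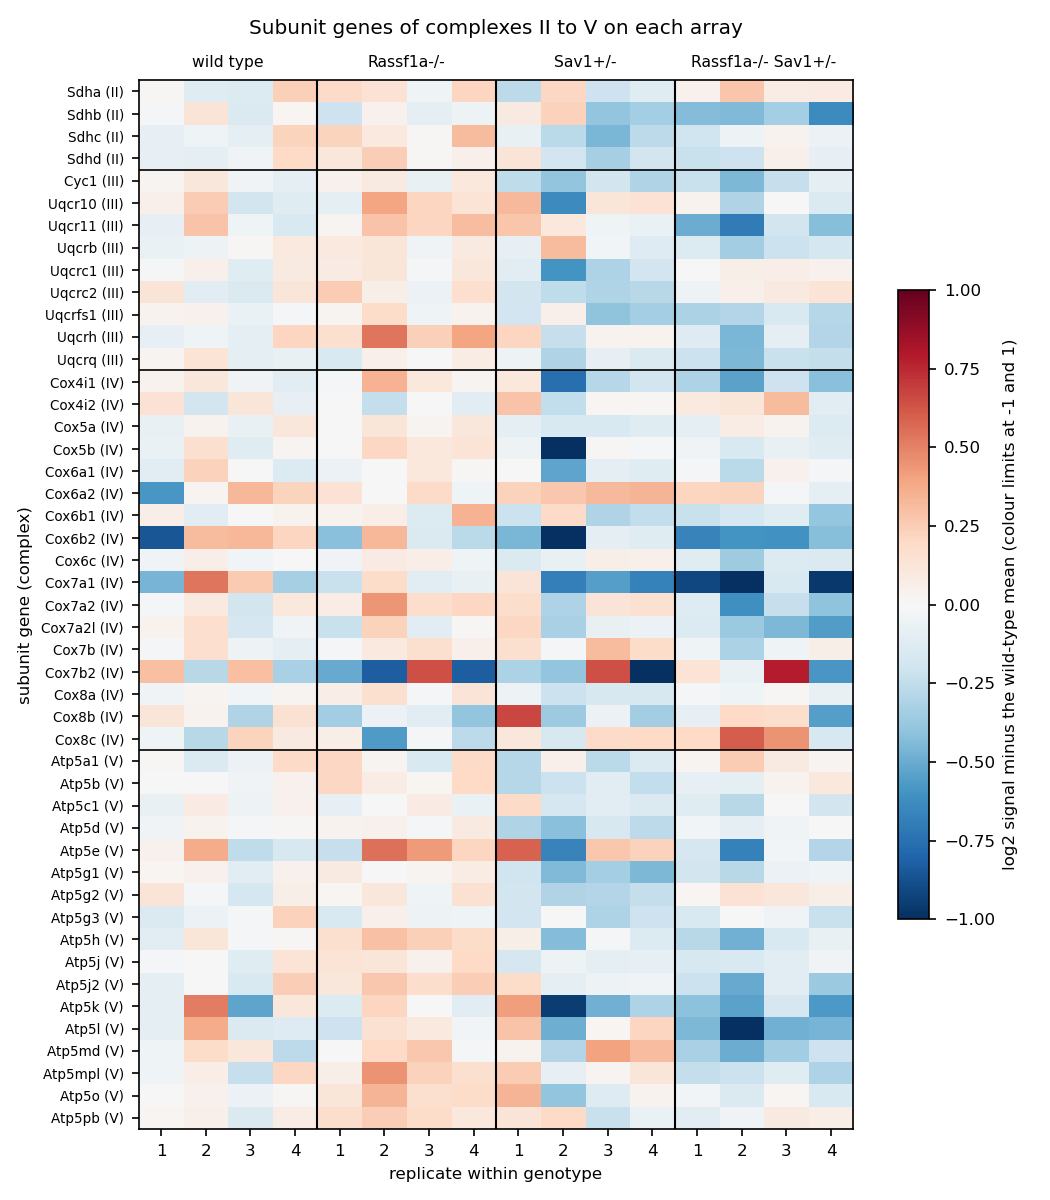
Log2 signal of all 47 subunit genes (rows, with their complex) on each of the 16 arrays (columns, by genotype and replicate), minus the wild-type mean of the gene; colour runs from -1 (blue) to 1 (red) and values beyond are drawn at the limit. In the double genotype 36 of the 45 tested genes have a mean below wild type (41.3% of all genes). Sav1+/- replicate 2 and double replicate 2 are the columns with the lowest means.

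Taken as a mean over its tested subunits, each complex had a lower genotype mean in Sav1+/- and in the double genotype than in wild type. For complex III the means of the 4 arrays, relative to the wild-type mean, were 0.05 to 0.20 in Rassf1a-/-, -0.22 to -0.01 in Sav1+/- and -0.32 to -0.11 in the double genotype, with wild type at -0.09 to 0.08. For complex V they were 0.03 to 0.19, -0.28 to 0.05 and -0.28 to -0.08 with wild type at -0.12 to 0.10. For complex IV they were -0.04 to 0.10, -0.38 to 0.03 and -0.27 to -0.08 with wild type at -0.13 to 0.09. For complex II they were -0.03 to 0.13, -0.35 to -0.01 and -0.20 to -0.04 with wild type at -0.10 to 0.17. Only replicate 2 of Sav1+/- lay outside the wild-type range for complexes IV and V. Replicates 1, 3 and 4 were at 0.03, -0.04 and -0.05 for complex IV and at 0.05, -0.11 and -0.08 for complex V. The double genotype lay wholly below wild type for complex III only, and the ranges met or crossed for the other complexes.

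**Figure D3:**
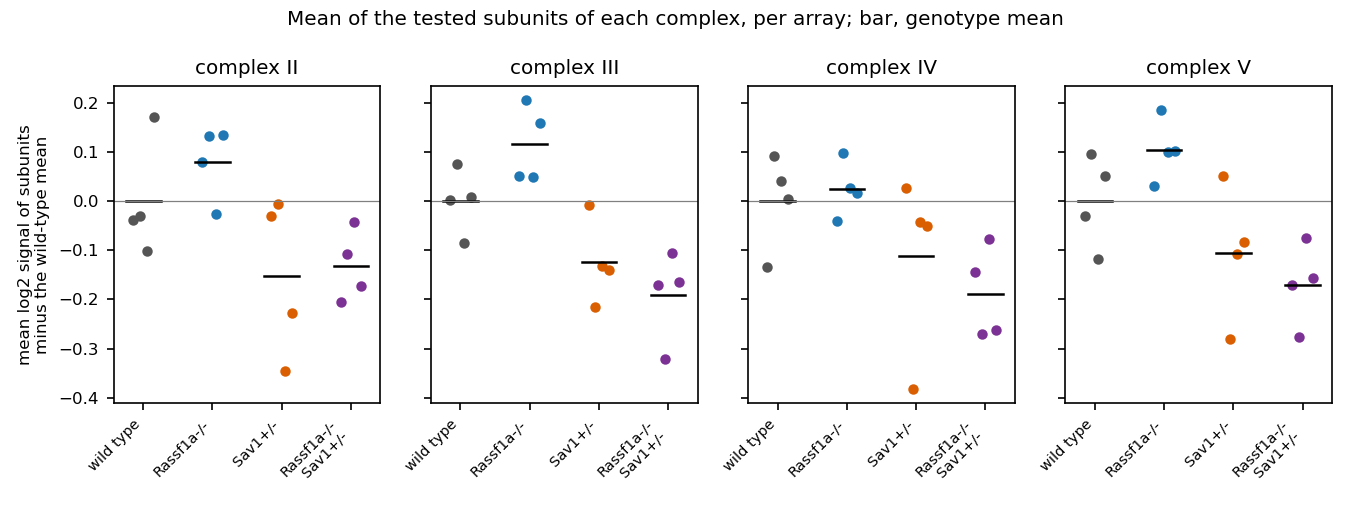
Mean log2 signal of the tested subunits of each complex on every array, minus the wild-type mean (vertical axis), by genotype (horizontal axis); bars are genotype means of 4 arrays. Every double-genotype array is below 0 in all 4 panels, and Sav1+/- spans the widest range in complexes II, IV and V.

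Complex II was the smallest group. Sdhb, the iron-sulfur subunit that carries electrons to the quinone site, had a log2 signal of 11.62, 11.76, 11.49 and 11.65 in wild type, 11.43, 11.68, 11.54 and 11.58 in Rassf1a-/-, 11.72, 11.86, 11.24 and 11.29 in Sav1+/-, and 11.20, 11.19, 11.29 and 11.00 in the double genotype. All 4 double-genotype arrays were below all wild-type arrays, and Sav1+/- was divided between replicates 1 and 2, within or above the wild-type range, and replicates 3 and 4, below it. Its log2 difference in the double genotype was -0.46 (SE 0.14, limma adjusted p = 0.153). Sdha, the flavoprotein with the succinate site, differed by +0.13 in Rassf1a-/-, -0.10 in Sav1+/- and +0.12 in the double genotype. The membrane anchors were lower in Sav1+/-, Sdhc by a log2 difference of -0.26 (SE 0.12, adjusted p = 0.542) and Sdhd by -0.15, and closer to wild type in the double genotype, with differences of -0.07 and -0.11.

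In complex III the catalytic subunits are given first. Cyc1, cytochrome c1, had a log2 signal of 12.03, 12.11, 11.96 and 11.90 in wild type, 12.05, 12.09, 11.93 and 12.11 in Rassf1a-/-, 11.74, 11.60, 11.81 and 11.70 in Sav1+/- and 11.78, 11.55, 11.77 and 11.91 in the double genotype. Sav1+/- lay wholly below wild type, and the double genotype did so except for replicate 4, at 11.91 against a lowest wild-type value of 11.90. Cyc1 had the smallest p among the subunits for the averaged Sav1 effect, a log2 difference of -0.29 (SE 0.08, adjusted p = 0.128). Uqcrfs1, the Rieske iron-sulfur protein, had an averaged Sav1 difference of -0.27 (SE 0.08, adjusted p = 0.163). The core protein Uqcrc1 had a log2 signal of 12.11 to 12.33 in wild type, 12.22 to 12.36 in Rassf1a-/-, 11.64 to 12.12 in Sav1+/- and 12.23 to 12.30 in the double genotype, where 1 Sav1+/- array reached the wild-type range. Its log2 difference was -0.30 in Sav1+/- (SE 0.12, adjusted p = 0.420), while the double genotype stood at +0.04. The other core protein, Uqcrc2, differed by -0.25 and +0.06, and its 4 Sav1+/- arrays at 12.03 to 12.14 were all below the wild-type range of 12.18 to 12.46. For the averaged Rassf1a effect both core proteins had log2 differences of +0.21 (adjusted p = 0.222 and 0.209).

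The small complex III subunits Uqcr11, Uqcrh, Uqcrb and Uqcrq were lowest in the double genotype. Uqcr11 had a log2 signal of 11.39, 11.76, 11.43 and 11.32 in wild type, 11.50, 11.76, 11.69 and 11.79 in Rassf1a-/-, 11.75, 11.58, 11.44 and 11.41 in Sav1+/- and 10.98, 10.78, 11.29 and 11.05 in the double genotype. Neither single genotype was below wild type on average, and every double-genotype array was below every other array. The log2 difference of the double genotype was -0.45 (SE 0.14, adjusted p = 0.153), and the interaction, which asks whether the double genotype differs from the sum of both single ones, was -0.73 (SE 0.20, adjusted p = 0.343), the smallest p for it among the subunits. Uqcrh, the acidic hinge protein that helps cytochrome c bind, was the 1 gene past an unadjusted p of 0.05 in Rassf1a-/-. Its log2 signal was 12.15, 12.19, 12.14 and 12.45 in wild type, 12.40, 12.77, 12.47 and 12.63 in Rassf1a-/-, 12.45, 12.01, 12.27 and 12.27 in Sav1+/- and 12.11, 11.78, 12.14 and 11.94 in the double genotype. Rassf1a-/- overlapped wild type only through wild-type replicate 4, and the double genotype did not overlap wild type. The log2 differences were +0.33 in Rassf1a-/- (SE 0.14, adjusted p = 0.383) and, for the double genotype, -0.24, with an interaction of -0.59 (SE 0.19, adjusted p = 0.387). For Uqcrb, the quinone-binding subunit, and Uqcrq the double genotype lay wholly below wild type with log2 differences of -0.22 and -0.28. Uqcr10 varied most in the complex (SD within genotypes 0.27) and differed by -0.10.

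**Figure D4:**
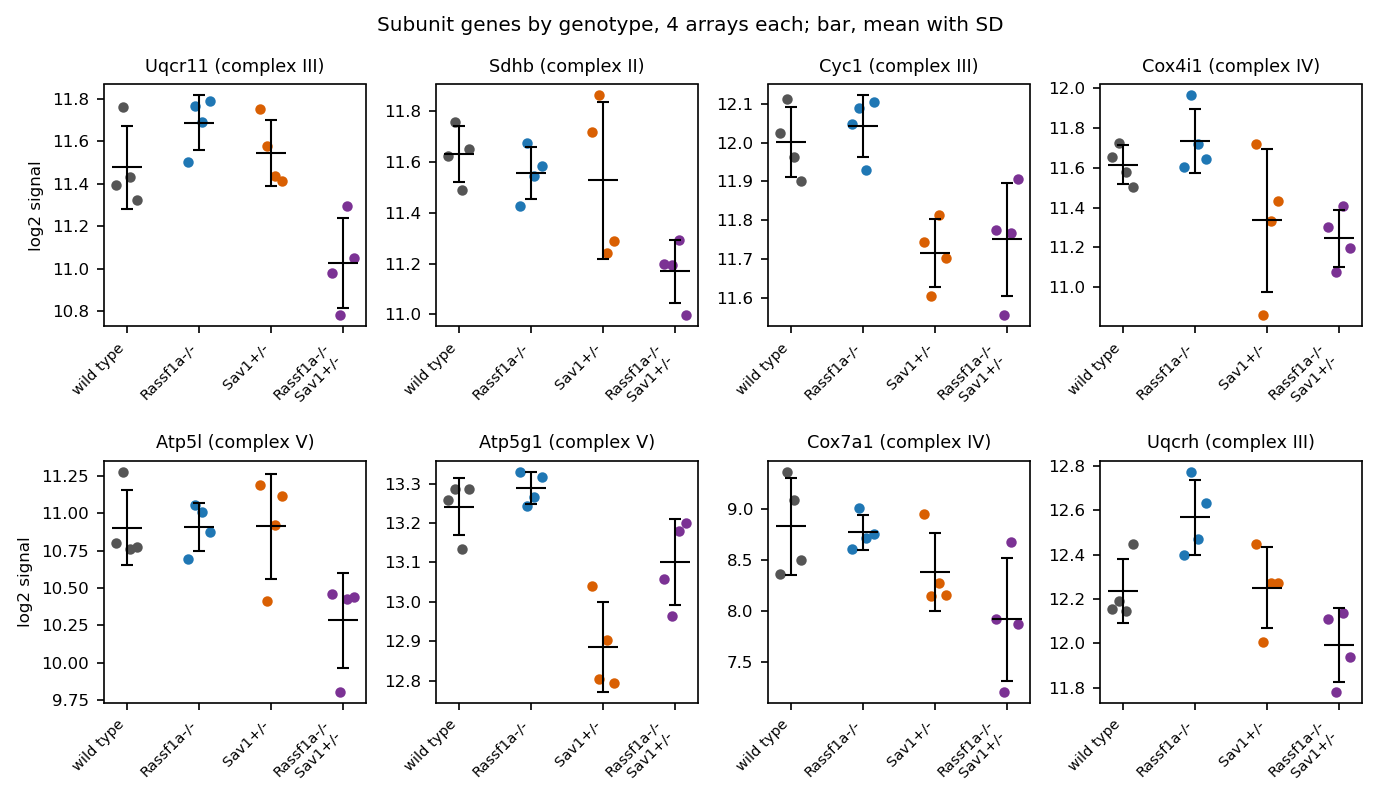
Log2 signal (vertical axis) of 8 subunit genes named in the text by genotype (horizontal axis), 4 arrays each as points, with the mean and SD in black. Uqcr11, Sdhb and Atp5l are lowest in the double genotype, Atp5g1 is lowest in Sav1+/-, and Cyc1 and Cox4i1 are low in both Sav1 genotypes.

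Complex IV subunits were read against their tissue forms. Cox4i1, the general form of the largest nuclear subunit, had a log2 signal of 11.65, 11.72, 11.58 and 11.50 in wild type, 11.60, 11.96, 11.72 and 11.64 in Rassf1a-/-, 11.72, 10.86, 11.33 and 11.43 in Sav1+/- and 11.30, 11.08, 11.41 and 11.20 in the double genotype. The double genotype was wholly below wild type and Sav1+/- was below it except for replicate 1. The averaged Sav1 difference was -0.38 (SE 0.11, adjusted p = 0.142). Its counterpart Cox4i2, known from lung and oxygen sensing, lay between 9.26 and 9.82 on all arrays and had an averaged Sav1 difference of +0.11.

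Cox7a1, the form known from heart, skeletal muscle and brown fat, had the largest log2 difference of all tested subunits. Its log2 signal was 8.36, 9.36, 9.09 and 8.49 in wild type, 8.60, 9.01, 8.71 and 8.75 in Rassf1a-/-, 8.95, 8.14, 8.27 and 8.15 in Sav1+/- and 7.92, 7.20, 8.68 and 7.87 in the double genotype. Wild type itself spanned a log2 range of 8.36 to 9.36, and double replicate 3 lay inside it. The log2 difference was -0.91 in the double genotype (SE 0.28, adjusted p = 0.146) and -0.65 for the averaged Sav1 effect (SE 0.20, adjusted p = 0.153). Cox7a1 reached the filter on 15 of 16 arrays and was among the 2 tested subunits that varied most within genotypes (SD 0.44). The general form Cox7a2 had a log2 signal of 11.65 to 11.95 in wild type, 11.91 to 12.28 in Rassf1a-/-, 11.53 to 12.02 in Sav1+/- and 11.23 to 11.71 in the double genotype. Its interaction was -0.61 (SE 0.21, adjusted p = 0.413). Cox7a2l, which takes part in assembling supercomplexes, had a log2 signal of 10.11 to 10.44 in wild type, 10.06 to 10.51 in Rassf1a-/-, 9.95 to 10.49 in Sav1+/- and 9.72 to 10.14 in the double genotype. Only replicate 1 of the double genotype reached the wild-type range. The log2 difference was -0.38 in the double genotype (SE 0.14, adjusted p = 0.256). Markers of striated muscle averaged a log2 signal of 6.81 to 7.62 over the arrays, near the filter level of 7.16 to 7.44, and 6 of 10 passed the filter. Of those 6 muscle markers 5 were higher and 1 lower in the double genotype, with a median log2 difference of +0.07. Over all genes 58.7% were higher there, with a median of +0.05. Of 6 markers of brown and white fat 3 passed the filter. In the double genotype 1 of these was higher and 2 lower, with a median log2 difference of -0.20. By limma 1 of the fat markers was lower at an unadjusted p under 0.05 (6.44% of all genes). The part of either tissue in the Cox7a1 values was not tested.

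The other tissue forms were dim or variable. Cox6b2, known from testis, had 8.99, 10.16, 10.18 and 10.06 in wild type, a low value in replicate 1 alone, 9.43 to 10.18 in Rassf1a-/-, at most 9.75 in Sav1+/- and 9.18 to 9.42 in the double genotype, with a log2 difference of -0.58 (SE 0.28, adjusted p = 0.384) and the largest spread of all tested subunits (SD 0.44). Its counterpart Cox6b1 lay between 12.85 and 13.03 in wild type and 12.57 and 12.84 in the double genotype, with a difference of -0.23. Cox6a2, a muscle form, had a log2 signal of 6.78 to 7.71 and reached the filter on 13 arrays, and its counterpart Cox6a1 lay between 11.59 and 12.35. Cox8c reached the filter on 4 arrays, the fewest allowed, and is the 1 subunit with a positive averaged Sav1 difference at an unadjusted p under 0.05 (+0.28, SE 0.13, adjusted p = 0.319). Those 4 arrays were Sav1+/- replicates 1 and 4 and double replicates 2 and 3. Cox8c therefore entered the test only through the genotypes in which it was higher, and its difference is no support for a change. Cox7b2 (4.15 to 6.13) and Cox8b (6.42 to 7.64) reached the filter on 0 and 1 arrays, and their general counterparts Cox7b and Cox8a lay between 12.70 and 13.33 and between 12.96 and 13.34. Cox8a had the smallest spread within genotypes of all tested subunits (SD 0.0585), and its 4 Sav1+/- arrays, at 13.13, 12.96, 13.02 and 13.02, were all below the wild-type arrays at a log2 difference of -0.15. Of the remaining complex IV subunits, Cox5b had its lowest value on Sav1+/- replicate 2, at 11.22 against 12.53, 12.60 and 12.57 on the other arrays of that genotype. Cox5a, its partner in the matrix-facing part, differed by -0.13 in Sav1+/- with 4 arrays of 11.54 to 11.60, all below wild type at 11.62 to 11.81. Levels of different genes are not compared here, since probe sets differ in brightness.

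Complex V is given by its modules. In the F1 head, Atp5d (delta) had a log2 signal of 13.16, 13.22, 13.18 and 13.20 in wild type, 13.23, 13.23, 13.18 and 13.28 in Rassf1a-/-, 12.89, 12.77, 13.04 and 12.93 in Sav1+/- and 13.16, 13.10, 13.15 and 13.19 in the double genotype. Sav1+/- was wholly below the other 3 genotypes, with a log2 difference from wild type of -0.29 (SE 0.10, adjusted p = 0.353). Atp5b (beta, the catalytic subunit) differed by -0.21 in Sav1+/- and -0.01 in the double genotype, Atp5a1 (alpha) by -0.16 and +0.10 and Atp5c1 (gamma) by -0.06 and -0.15. Atp5e (epsilon) differed by +0.11 and -0.29 with a wide spread (SD within genotypes 0.38).

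The c ring is encoded by Atp5g1, Atp5g2 and Atp5g3, which yield the same mature protein. Atp5g1 had a log2 signal of 13.26, 13.29, 13.13 and 13.29 in wild type, 13.33, 13.24, 13.27 and 13.32 in Rassf1a-/-, 13.04, 12.80, 12.90 and 12.79 in Sav1+/- and 13.06, 12.96, 13.18 and 13.20 in the double genotype. Sav1+/- did not overlap wild type, and the double genotype overlapped both. The log2 difference was -0.36 in Sav1+/- (SE 0.11, adjusted p = 0.290), the smallest p there, and -0.27 for the averaged Sav1 effect (SE 0.08, adjusted p = 0.132). Atp5g2 had a log2 signal of 12.39 to 12.70 in wild type, 12.52 to 12.72 in Rassf1a-/-, 12.27 to 12.38 in Sav1+/- and 12.59 to 12.71 in the double genotype. Its log2 difference was -0.25 in Sav1+/- and +0.08 in the double genotype, and for the averaged Rassf1a effect it had the smallest p of the subunits (+0.20, SE 0.08, adjusted p = 0.199). The 3 probe sets of Atp5g2 hold identical values and count as 1 measurement. Atp5g3 had 12.37 to 12.74 in wild type and a log2 difference of -0.18 in Sav1+/- and -0.10 in the double genotype.

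Among the small membrane subunits of complex V the double genotype was lowest. Atp5l (subunit g) had a log2 signal of 10.80, 11.28, 10.76 and 10.78 in wild type, 10.70, 11.05, 11.01 and 10.88 in Rassf1a-/-, 11.19, 10.41, 10.92 and 11.12 in Sav1+/- and 10.46, 9.80, 10.43 and 10.44 in the double genotype. The double genotype was wholly below wild type, and Sav1+/- replicate 2 alone of its group lay in the range of the double genotype. The log2 difference was -0.62 (SE 0.19, adjusted p = 0.149), a 1.54-fold lower signal, and -0.31 for the averaged Rassf1a effect (SE 0.14, adjusted p = 0.269). Atp5k (subunit e), Atp5md, Atp5j2 (subunit f) and Atp5mpl had log2 differences of -0.42, -0.34, -0.30 and -0.22 in the double genotype, and -0.33, +0.11, 0.00 and +0.08 in Sav1+/-. Interactions were -0.63 for Atp5l, -0.57 for Atp5md, -0.52 for Atp5mpl (SE 0.18, adjusted p = 0.414) and -0.50 for Atp5j2. In the peripheral stalk, Rassf1a-/- lay wholly above wild type for Atp5h (subunit d), Atp5o (OSCP) and Atp5pb (subunit b), with log2 differences of +0.22 (SE 0.13, adjusted p = 0.586), +0.20 and +0.18. Atp5mpl and Atp5j2 had +0.22 and +0.20 there (adjusted p = 0.578 and 0.600). Atp5h had 11.68 to 11.91 in wild type, 11.95 to 12.09 in Rassf1a-/-, 11.35 to 11.85 in Sav1+/- and 11.31 to 11.71 in the double genotype. Atp5mpl had 10.71 to 11.15, 10.99 to 11.39, 10.86 to 11.20 and 10.63 to 10.82 in the same order, and Atp5j2 had 12.60 to 13.00, 12.86 to 13.02, 12.66 to 12.93 and 12.24 to 12.65. The double genotype overlapped wild type for both of these membrane subunits and for Atp5h. Atp5j, the coupling factor of the stalk, differed by +0.12 in Rassf1a-/-, -0.10 in Sav1+/- and -0.11 in the double genotype. Atp5h, Atp5o and Atp5pb were the 3 subunits whose 4 Rassf1a-/- arrays did not overlap wild type, which is 6.67% of the 45 against 6.55% of all genes higher.

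**Figure D5:**
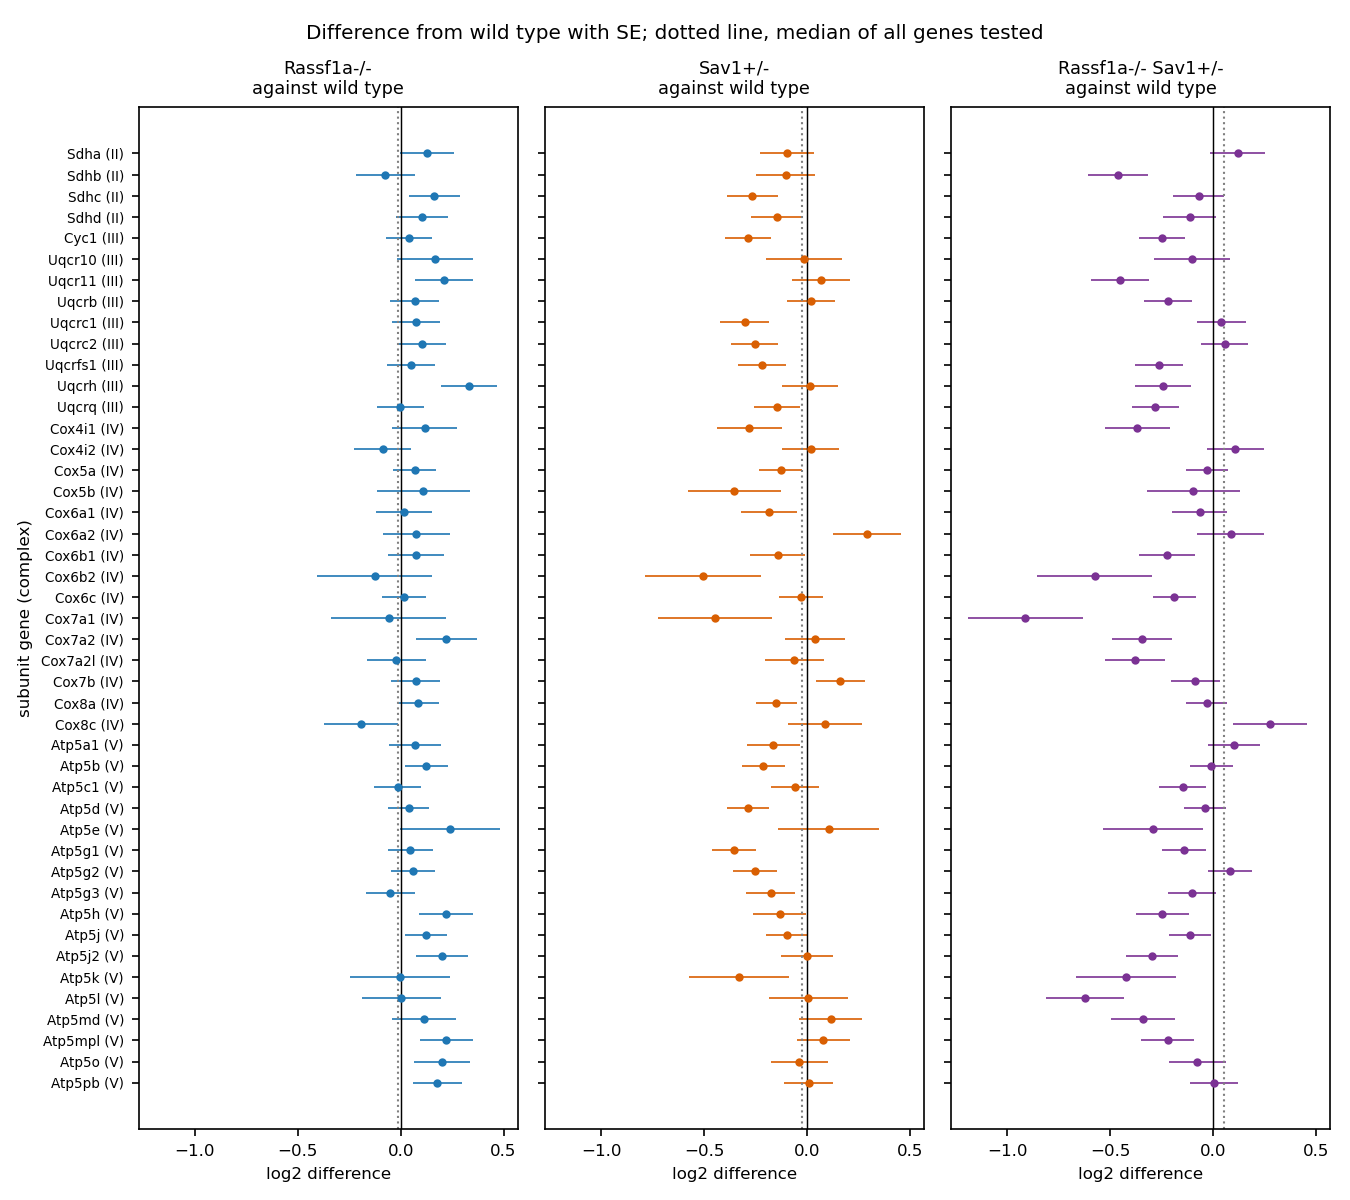
Log2 difference from wild type (horizontal axis) with its SE for the 45 tested subunit genes (vertical axis, with complex) in Rassf1a-/- (left), Sav1+/- (middle) and the double genotype (right); dotted lines mark the median of all genes tested. Most points are right of the dotted line in the left panel and left of it in the right panel, where Cox7a1 at -0.91 and Atp5l at -0.62 are farthest out.

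Groups that do not overlap were counted next. In Sav1+/- all 4 arrays lay below wild type for 8 of 45 subunits (17.8%; Cyc1, Uqcrc2, Cox5a, Cox8a, Atp5b, Atp5d, Atp5g1 and Atp5g2) against 4.24% of all genes, and above it for 0 (0.441% of all genes). In the double genotype they lay below wild type for 10 (22.2%; Sdhb, Uqcr11, Uqcrb, Uqcrfs1, Uqcrh, Uqcrq, Cox4i1, Cox6b1, Cox6c and Atp5l) against 4.49%, and above it for 0 (6.28%). In Rassf1a-/- they lay below wild type for 0 (4.32%). No subunit was on both the Sav1+/- and the double-genotype list. Atp5g2 had log2 differences of -0.25 in Sav1+/- and +0.08 in the double genotype, and Uqcr11 had +0.07 and -0.45. The averaged Sav1 effect pools such subunits with others, Cyc1 among them, whose mean was lower in both. The counts of groups without overlap moved with single arrays. Leaving out an array of a compared group can only keep or raise such a count, so a rise is no sign of stability. The share of all genes under the same setting is given beside each. The Rassf1a-/- count of 3 higher became 9 without wild-type replicate 4 (10.8% of all genes), 6 without Rassf1a-/- replicate 3 (13.8%) and 5 without wild-type replicate 2 (7.83%) or Rassf1a-/- replicate 1 (7.75%). The Sav1+/- count of 8 lower became 14 without Sav1+/- replicate 1 (5.97%) and 11 without Sav1+/- replicate 2 (11.4%). The double-genotype count of 10 lower became 17 without wild-type replicate 3 (5.92%) and 13 without double replicate 4 (10.2%). On the 11 arrays of low Y-linked signal 9 were lower in Sav1+/- (11.1%) and 12 in the double genotype (6.3%).

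Counts at an unadjusted p under 0.05 moved too, and each is given with the share of all genes under the same setting. The double-genotype count of 12 lower became 4 without wild-type replicate 2 (4.96% of all genes) and 5 without double replicate 2 (4.04%). The Sav1+/- count of 7 lower became 3 without wild-type replicate 4 (5.33%), and the interaction count of 7 negative became 12 without Sav1+/- replicate 2 (4.65%). For the averaged Rassf1a effect the lower count of 2 ran from 0 to 3. It was 0 without wild-type replicate 2, Rassf1a-/- replicate 1 or 4, Sav1+/- replicate 1 or double replicate 2 (2.99% to 4.45%). It was 3 without Sav1+/- replicate 2 (5.96%) or double replicate 3 (3.98%). The higher count of 4 ran from 3 (8.92% to 13.3%) to 7, with 7 without wild-type replicate 4 (11.8%). The count of 1 higher in Rassf1a-/- became 3 without wild-type replicate 4 (6.55%). It became 0 without wild-type replicate 1, 2 or 3 or Rassf1a-/- replicate 2 or 4 (4.12% to 5.13%). The averaged Sav1 count of 20 lower ran from 15, without wild-type replicate 4 (9.01%) or Rassf1a-/- replicate 2 (10.2%), to 26, without Sav1+/- replicate 1 (10.2%). On the 11 arrays of low Y-linked signal alone 3 subunits were lower in Sav1+/- (6.31% of all genes), 2 in the double genotype (2.22%), 4 for the averaged Sav1 effect (3.95%) and 2 for the interaction (0.988%). The medians there were -0.11, -0.10, -0.15 and -0.03. That fit kept only replicates 1 and 2 of Sav1+/- and replicates 3 and 4 of the double genotype. The 2 Sav1+/- arrays had the lowest array weights, with subunit means 0.02 above and 0.28 below the wild-type mean. It can therefore say little about Y-linked signal.

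Other properties of the arrays moved with the Sav1 genotypes. The 10 Kupffer cell markers had a mean log2 signal of 9.42 to 10.33 in wild type, 9.17 to 10.11 in Rassf1a-/-, 9.51 to 10.88 in Sav1+/- and 9.84 to 10.72 in the double genotype. All 10 were higher for the averaged Sav1 effect, 2 of them at an unadjusted p under 0.05 and 0 called by limma, with a median log2 difference of +0.35. Sav1+/- replicate 2, the array with the lowest mean over the subunits, had the highest Kupffer cell mean at 10.88. Double replicates 2 and 4 had the next lowest subunit means. Their Kupffer cell means were 10.21 and 9.84, within the wild-type range. The 2 erythroid markers found, Alas2 and Slc4a1, had a mean log2 signal of 6.31 to 9.39 in wild type, 8.28 to 9.58 in Rassf1a-/-, 8.49 to 10.27 in Sav1+/- and 7.98 to 10.22 in the double genotype. Their median averaged Sav1 difference was +0.86, with 1 of 2 at an unadjusted p under 0.05 and 0 called. Compared within genotypes between the 5 arrays of high Y-linked signal and the others, 1 of these 2 markers was called higher. Its log2 difference was +2.01 (limma adjusted p = 0.000445), and the other marker was lower at -0.98. High Y-linked signal lay on 0 wild-type, 1 Rassf1a-/-, 2 Sav1+/- and 2 double-genotype arrays, and its part in the erythroid values was not tested. The hepatocyte markers had a median averaged Sav1 difference of +0.01 over 8 genes. In whole liver fewer cells of a type and less RNA per cell cannot be told apart, and the part of these cells in the subunit values was not tested. Y-linked signal within genotypes, compared between the 5 high arrays and the others, called 0 of 45 subunits by limma, with 0 at an unadjusted p under 0.05 and a smallest adjusted p of 0.451 (Cox6b2), while it called 4.73% of all genes, with 13.8% at an unadjusted p under 0.05.

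The subunits did not all vary together between arrays of a genotype. With genotype means removed, the median Pearson correlation over 990 pairs of subunits and 16 arrays was 0.21, and 64.9% of pairs were positive. It was 0.27 for 283 pairs within a complex and 0.19 for 707 pairs between complexes. The closest pair was Uqcr10 with Atp5e (r = 0.97, Spearman 0.94), and Sdha with Atp5a1 was another close pair (r = 0.94, Spearman 0.93). Both ran opposite to several small subunits, Sdha against Cox6a1 at r = -0.88 and Atp5a1 against Atp5e at r = -0.77. Without Sav1+/- replicate 2 these values were 0.97, 0.93, -0.79 and -0.69. All pairs share arrays and normalization, and the correlations are given as a description with no test.

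Among genes that build and control these complexes, Bcs1l and Coa6 were called in comparisons of genotypes. Bcs1l, the AAA chaperone that places the Rieske protein Uqcrfs1 in complex III, had a log2 signal of 9.56, 9.63, 9.43 and 9.71 in wild type, 9.93, 9.99, 10.01 and 10.10 in Rassf1a-/-, 9.30, 9.13, 9.21 and 9.31 in Sav1+/- and 9.40, 9.73, 9.71 and 9.91 in the double genotype. Rassf1a-/- lay above and Sav1+/- below every wild-type array. Bcs1l rose for the averaged Rassf1a effect by a log2 difference of 0.44 (SE 0.09, limma adjusted p = 0.0112), and its averaged Sav1 difference was -0.33 (SE 0.09, adjusted p = 0.122). The Rassf1a call held in all 16 fits without 1 array and was lost on the 11 arrays of low Y-linked signal (0.51, adjusted p = 0.0855), the highest of its 25 alternatives, which began at 0.00506. Coa6, a copper-handling assembly factor of complex IV, had a log2 signal of 9.28, 9.71, 8.94 and 9.38 in wild type, 9.01, 9.18, 9.25 and 8.84 in Rassf1a-/-, 8.32 to 9.46 in Sav1+/- and 8.27, 7.98, 8.38 and 8.55 in the double genotype. It fell by 1.04 on the log2 scale in the double genotype (SE 0.21, limma adjusted p = 0.0296), whose arrays lay wholly below wild type. That call held in 10 of the 16 fits without 1 array (adjusted p from 0.00732 to 0.138) and was lost without wild-type replicate 1, 2 or 4 or double replicate 1, 2 or 3. Over all 26 alternatives its adjusted p ran from 0.00122 to 0.689, and the call was also lost without the filter (0.0632), with mean Y-linked signal in the model (0.0788) and on the 11 arrays of low Y-linked signal (0.689).

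Assembly factors were counted list by list, each count being genes called. For complex III 1 of 5 was called higher for the averaged Rassf1a effect (Bcs1l; 2.23% of all genes were called) and 0 of 5 in the 3 comparisons with wild type. For complex IV 1 of 20 was called, in the double genotype (Coa6; 0.821% of all genes were called), where 7 of the 20 differences were positive and 13 negative with a median of -0.07. For complex II 0 of 4 were called, with Sdhaf1 at -0.43 (SE 0.15, adjusted p = 0.202) and Sdhaf4 at -0.42 (adjusted p = 0.272) in the double genotype and Sdhaf2 at +0.35 (adjusted p = 0.494) in Rassf1a-/-. For complex V 0 of 6 were called, with Atpaf1, the chaperone of the beta subunit, at +0.47 in Rassf1a-/- (SE 0.14, adjusted p = 0.173) and Tmem70 and Tmem242 at -0.41 and -0.39 in the double genotype (adjusted p = 0.178 and 0.292). Averaged over both Rassf1a states, Sav1 differences were negative for 4 of 4, 4 of 5, 18 of 20 and 6 of 6 assembly factors of complexes II, III, IV and V, and for 46.0% of all genes. Cycs (cytochrome c), Ndufa4 and Atpif1, the inhibitor of the ATP synthase, differed by -0.28, -0.29 and -0.26 in the double genotype (adjusted p = 0.415, 0.366 and 0.602).

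Of 14 regulators of respiratory genes 0 were called by limma in the 3 comparisons with wild type, and few had an unadjusted p under 0.05. In Rassf1a-/- 1 was higher and 2 lower (6.33% and 4.1% of all genes), in Sav1+/- 1 and 1 (1.69% and 7.47%), and in the double genotype 3 and 2 (7.19% and 6.44%). Gabpb1, the partner of the ETS factor GABPA, had a log2 signal of 7.87 to 7.97 in wild type and 8.20 to 8.90 in Rassf1a-/-, which did not overlap, at a log2 difference of +0.66 (SE 0.16, adjusted p = 0.0761). Esrra, the nuclear receptor ERR alpha, had 7.86 to 8.08 in wild type and 7.04 to 7.67 in the double genotype, also without overlap, at -0.69 (SE 0.17, adjusted p = 0.0740). The 3 regulators higher in the double genotype, named after their values were seen, were Gabpb1 (+0.38, adjusted p = 0.315), Polrmt, the mitochondrial RNA polymerase (+0.40, adjusted p = 0.340), and Yy1 (+0.35, adjusted p = 0.242), none of which overlapped wild type. Ppara, the receptor that controls fatty acid oxidation, differed by -0.58 in Rassf1a-/- (SE 0.18, adjusted p = 0.198). With Y-linked signal within genotypes, Ppargc1a, the coactivator PGC-1 alpha, and Atpif1 were called lower (log2 differences of -0.72 and -0.49, limma adjusted p = 0.00631 and 0.0182) and Cox19 higher (+0.70, adjusted p = 0.0274).

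A check on the probe sets was possible for 11 of the 12 subunit genes with more than 1, since those of Atp5g2 are identical. The signs of all probe sets matched for 9 of 11 genes in Rassf1a-/-, 9 in Sav1+/-, 10 in the double genotype, 9 for each averaged effect and 11 for the interaction. In Sav1+/- the probe sets of Atp5l and Cox6c differed in sign, and in the double genotype those of Atp5pb did. In Rassf1a-/- those of Atp5l and Cox7a2l did, and for the averaged Rassf1a effect those of Atp5h and Atp5pb. For the averaged Sav1 effect those of Cox7b and Uqcrb did, and Uqcrb had -0.13 on the probe set used and +0.01 and +0.06 on the others. Among the comparisons with wild type the widest gap was 0.51 on the log2 scale, for Uqcrb in Sav1+/-, so its value depends on the probe set.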

How the data were processed

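The authors deposited 1 table of normalized log2 expression values for 16 Affymetrix arrays, which the submitters' processing notes credit to Affymetrix Expression Console. The sources used here give neither its version nor the normalization, and the log2 scale was read from the values. Genes were named by GEO's platform annotation: of 35556 probe sets, 21789 named 1 gene, 1621 several and 12146 none. The members and gene lists were chosen with earlier results of these data known. A probe set was kept where it reached the array's 40th percentile of 1-gene probe sets (7.16 to 7.44) on at least 4 arrays, and the brightest probe set stood for its gene. A model of the 4 genotypes was fitted to all arrays with limma 3.58.1 (R 4.3.3, 12 residual degrees of freedom). Averaged effects and the interaction were contrasts of that fit, and the Y-linked comparison added the Y-linked state as a term. Tests were two-sided, with Benjamini-Hochberg adjustment over 13152 genes and a threshold of 0.05. The script was tested on simulated data. Values by array are given for the 4 subunits with the smallest p in each genotype comparison, tissue isoforms with their counterparts, the c ring genes and the extremes of spread, and for any other gene named after its values were seen. Replicates were numbered in accession order. The number of arrays limits the precision. Alternatives covered scaling, filter, probe set choice, array weights, moderation, Y-linked signal and single arrays. Promoters were searched with Python 3.11.15, and figures drawn with matplotlib 3.10.9.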

Additional observations from a re-analysis of the deposited data

Results flagged for a closer look

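In 12 of 188 groups of 4 arrays (47 genes in 4 genotypes) 1 array lay far from the other 3, with a gap to the nearest array that took a larger share of the group's range than Dixon's 95% critical value. Chance flags about 1 in 20 groups. Double replicate 2 held 3 of them, Atp5l at a log2 signal of 9.80, Uqcrq at 12.56 and Cox6c at 13.15, each the lowest of its group. Sav1+/- replicate 2 held 3 as well, Cox5b at 11.22 and Cox7a2 at 11.53, the lowest of their groups, and Cox6b1 at 13.15, the highest. In wild type, replicate 4 was highest for Sdhc (12.68) and Uqcrh (12.45), replicate 1 was lowest for Cox6b2 (8.99) and replicate 2 was highest for Atp5l (11.28). Cox7a1 was highest on Sav1+/- replicate 1 (8.95), and Uqcrfs1 was highest on double replicate 3 (10.20). The causes were not tested.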

How the results depend on the processing

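No paired analysis was possible because replicates carry no number in the labels. The count of subunits called stayed at 0 under every alternative run except array weights. With these, 4 were called in the double genotype (9.36% of all genes) and 10 for the averaged Sav1 effect (11.5%). The median log2 difference kept its sign under every alternative in Rassf1a-/- (0.04 to 0.14), Sav1+/- (-0.15 to -0.07), the double genotype (-0.18 to -0.09), the averaged Sav1 effect (-0.25 to -0.12) and the interaction (-0.21 to -0.03), and crossed 0 for the averaged Rassf1a effect (-0.01 to 0.04). It moved by more than the SE that the spread of the members' mean between arrays gives that contrast in 4 cases, the averaged Sav1 effect with quantile normalization (-0.12) and with median centring (-0.25), Rassf1a-/- with median centring (0.14) and the interaction on the 11 arrays of low Y-linked signal (-0.033). The averaged Sav1 count of 20 subunits lower at an unadjusted p under 0.05 became 11 with quantile normalization (11.4% of all genes) and 29 with median centring (15.02%), and the causes were not tested. Of 974 recomputed values of 38 named gene results, 944 kept direction and call, 0 reversed, 20 newly passed the threshold (15 of them with array weights) and 10 no longer did. Those 10 belong to Coa6 and Bcs1l. The number of arrays, 4 a genotype, limits the precision of every value.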
